A study of Mus musculus with 12 samples.

Results

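The expression of 10 circadian clock genes was examined in the lung and heart of Adam19 wildtype (WT) and Adam19 knockout (KO) mice. The members were chosen by name, as the rows of the gene table with the symbols Clock, Npas2, Per1, Per2, Per3, Cry1, Cry2, Nr1d1, Nr1d2 and Dbp, which are 10 of the 55679 genes in the table. All 10 were found, and 9 of them, all but Npas2, carry the table's mark for a detected gene. RNA was taken from whole lung and whole heart of 6 male mice, 3 WT and 3 KO, with 1 library for each tissue of each mouse and 12 libraries in all. The mice were young adults of the inbred 129S6/SvEvTac strain. They were given a lethal dose of sodium pentobarbital and bled from the vena cava, and the organs were frozen at once. The KO mice are homozygous for an Adam19-tdTomato allele, in which a tdTomato reporter and a hygromycin resistance cassette stand in place of exons 6 and 7, and the allele is present throughout the body. The WT mice carry neither insert. The labels tie the lung and heart of a mouse together by its identifier, so WT mouse 1, 2 and 3 and KO mouse 1, 2 and 3 are the same animals in both organs. They do not give the time of day at which a mouse was killed. Identifiers begin with a prefix that differs between the genotypes, and within each genotype 1 mouse, WT mouse 3 and KO mouse 1, has another prefix than the other two. The labels do not say what the prefix marks, so prefix and genotype cannot be told apart, and neither can time of collection and genotype.

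The mammalian clock is a feedback loop of transcription that runs in nearly every cell with a period of about a day. CLOCK, or its relative NPAS2, pairs with BMAL1 and binds E-box sequences to switch on the Per and Cry genes, whose proteins return to the nucleus and block that pair. The same pair drives Nr1d1 and Nr1d2, which encode the REV-ERB repressors of Bmal1, Clock and Npas2, and Dbp, which encodes an activator that binds D-box sequences in Per3 and many output genes. In lung and heart, as in other peripheral organs, the transcripts of Bmal1 and Npas2 peak at roughly the opposite time of day to those of Per3, Nr1d1 and Dbp. A single sample from a mouse thus holds a snapshot of the phase of its clock. Bmal1 is listed in the files under its older symbol Arntl, which is used here.

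Gene values are given as deposited, on a log2 scale, and a difference of 1 is a 2-fold change in expression. The libraries held between 17674788 and 35862932 estimated counts. The lowest estimated count of a member in any library was 7.64 for Npas2 and between 130 and 1909 for the other 9 members, so counting error weighs on Npas2 far more than on the others. Adam19 stood between 9.12 and 10.27 in the 6 WT libraries and between 3.21 and 6.67 in the 6 KO libraries, as the labels state. The 5 lung markers summed to 18.83 to 19.12 in the lungs and 6.44 to 10.70 in the hearts, and the 5 heart muscle markers to 20.54 to 20.85 in the hearts and 13.13 to 14.51 in the lungs. In bulk tissue, fewer cells of a type and less RNA per cell cannot be told apart.

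In lung, WT mouse 3 stood apart from the other 5 mice before any clock gene is considered. Its lung was the highest or the lowest of the 6 lungs for 61.2% of all genes compared and its heart was so among the 6 hearts for 41.1%. In lung the next mouse was KO mouse 3 with 36.9%. In heart WT mouse 2 exceeded WT mouse 3 with 50.4%, and KO mouse 3 was almost level with it at 40.9%, so WT mouse 3 did not stand apart there. The heart library of WT mouse 3 was the shallowest of the hearts, with 18392292 estimated counts, while its lung library was within the range of the lungs. Results of the clock genes that rest on WT mouse 3 are therefore given with and without it.

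All 10 members are protein-coding genes, placed here on GRCm39 with GENCODE vM39. The activators lie with Clock at chr5:76342860-76452846 (- strand) and Npas2 at chr1:39232705-39402323 (+ strand). The repressors of the Per and Cry families lie with Per1 at chr11:68986035-69002300 (+ strand), Per2 at chr1:91343700-91387069 (- strand), Per3 at chr4:151081373-151129140 (- strand), Cry1 at chr10:84967560-85021252 (- strand) and Cry2 at chr2:92233894-92264474 (- strand). The REV-ERB genes and the output regulator lie with Nr1d1 at chr11:98658752-98666188 (- strand), Nr1d2 at chr14:4230545-4266624 (+ strand) and Dbp at chr7:45354512-45359627 (+ strand). Per1 and Nr1d1 are on chromosome 11, as is Adam19 (chr11:45946775-46038172, + strand), the targeted gene.

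Clock genes differed widely in abundance. Levels are compared here as estimated counts per kilobase of transcript, after scaling each library by the shift that its deposited gene values carry. Values within 1 tissue are given as the lowest, median and highest of its 6 libraries. In lung, Dbp was the most abundant member (631, 1538 and 1800 per kilobase), followed by Nr1d2 (753, 851 and 1001) and Nr1d1 (360, 581 and 768). The same 3 genes led in the heart, where Dbp reached 982, 2005 and 2758 per kilobase. Per1 came next in both organs, with medians of 433 in lung and 396 in heart. The next 4 places were taken by Cry2, Per3, Clock and Per2 in lung, with medians of 330 down to 255, and by Clock, Cry2, Per3 and Per2 in heart, with medians of 257 down to 121. Cry1 came next, with medians of 109 and 85.4, and Npas2 was last, with 6.66 in lung and 20.9 in heart. Neighbours in this order overlapped in their ranges, except that Npas2 lay below Cry1 in both organs and Clock lay below Per1 in the heart. Npas2 was thus far less abundant than Clock, the other partner of BMAL1, in both organs.

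**Figure D1:**
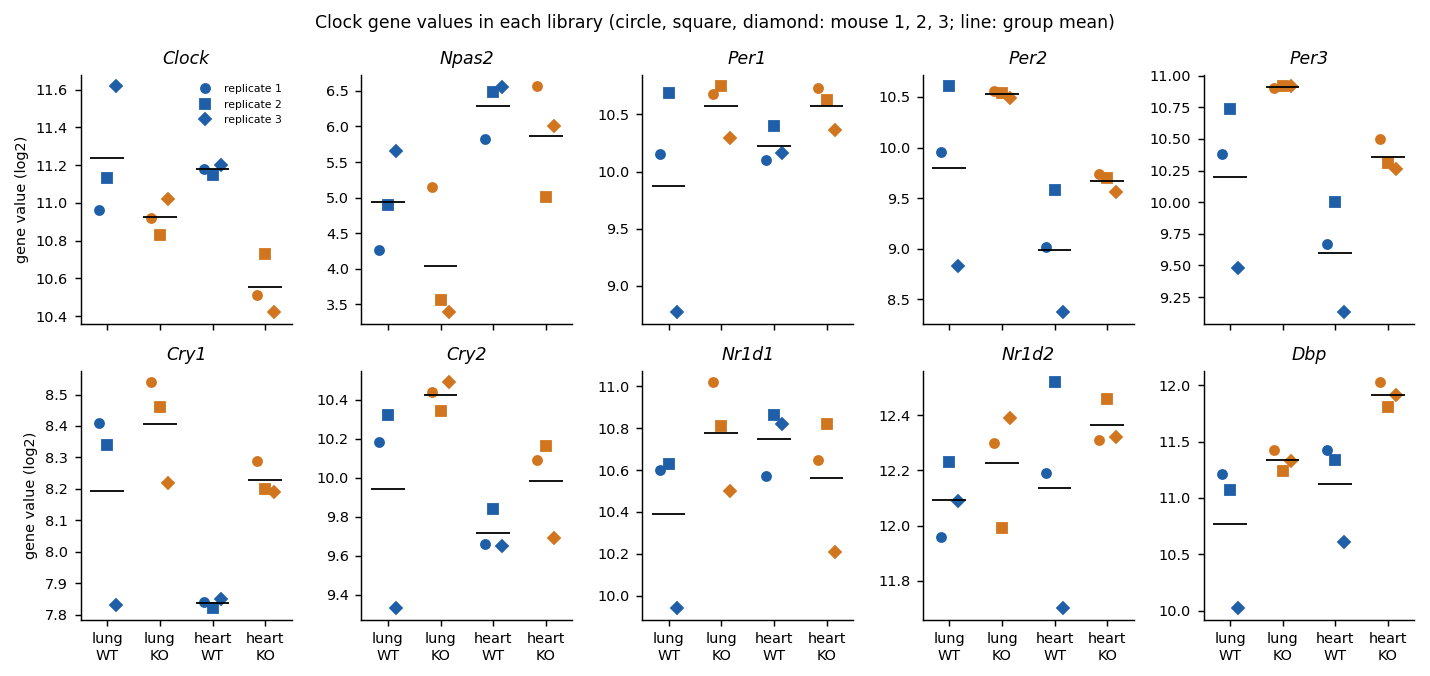
Deposited gene value (log2, vertical axis) of each of the 10 clock genes in the 12 libraries, by tissue and genotype; symbols mark mouse 1, 2 and 3 of a genotype and the line is the group mean. The diamond of WT mouse 3 lies below the other 5 lungs for Per1, Per2, Per3, Cry1, Cry2, Nr1d1 and Dbp and above them for Clock and Npas2.

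The start sites of several members carry the sequences through which clock proteins act on one another. The RefSeq promoter table (GRCm38.p6) held 12 promoters of 9 members, and none of Per2. Each window of 250 bases before and 50 bases after a start was placed on GRCm39 by an exact match. Windows were searched on both strands for the E-box CACGTG, the E-box-like word CACGTT, the D-box words TTATGTAA and TTACGTAA, and the ROR element words TAGGTCA and TGGGTCA, which do not overlap one another in the windows shown. These stand in 7.15%, 4.68%, 1.06% and 6.45% of all 32851 promoters in the table. An E-box or E-box-like word was found in 4 members (Per1, Cry1, Cry2 and Nr1d1) and D-boxes in Per3. The windows of Clock, Npas2, Nr1d2 and Dbp held none of these words. Printed here are the windows of a period gene, a cryptochrome, a D-box gene and a REV-ERB gene, and of Arntl, which their products regulate, each 5′ to 3′ on its gene's strand with the matched words in capitals.
Per1 (chr11:68989525-68989824, + strand, E-box): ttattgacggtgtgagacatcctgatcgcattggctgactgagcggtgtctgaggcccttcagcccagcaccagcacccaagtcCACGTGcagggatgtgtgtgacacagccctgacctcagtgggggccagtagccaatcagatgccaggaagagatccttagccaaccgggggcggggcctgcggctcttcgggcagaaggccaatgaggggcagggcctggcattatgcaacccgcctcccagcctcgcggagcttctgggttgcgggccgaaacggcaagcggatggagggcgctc
Cry1 (chr10:85020869-85021168, - strand, E-box-like word and E-box): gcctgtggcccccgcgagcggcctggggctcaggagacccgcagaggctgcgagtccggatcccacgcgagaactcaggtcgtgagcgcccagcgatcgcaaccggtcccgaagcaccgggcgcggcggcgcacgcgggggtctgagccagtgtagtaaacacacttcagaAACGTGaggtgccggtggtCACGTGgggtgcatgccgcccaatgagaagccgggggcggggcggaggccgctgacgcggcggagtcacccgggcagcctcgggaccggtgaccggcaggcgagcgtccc
Per3 (chr4:151129073-151129372, - strand, D-box, found at 2 places): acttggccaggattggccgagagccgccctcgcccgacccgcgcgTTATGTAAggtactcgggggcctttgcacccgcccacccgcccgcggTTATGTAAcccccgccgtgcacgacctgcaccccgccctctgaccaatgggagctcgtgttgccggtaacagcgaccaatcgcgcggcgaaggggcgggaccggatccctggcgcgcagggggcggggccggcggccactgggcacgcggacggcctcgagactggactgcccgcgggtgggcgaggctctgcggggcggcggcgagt
Nr1d1 (chr11:98666154-98666453, - strand, E-box-like word): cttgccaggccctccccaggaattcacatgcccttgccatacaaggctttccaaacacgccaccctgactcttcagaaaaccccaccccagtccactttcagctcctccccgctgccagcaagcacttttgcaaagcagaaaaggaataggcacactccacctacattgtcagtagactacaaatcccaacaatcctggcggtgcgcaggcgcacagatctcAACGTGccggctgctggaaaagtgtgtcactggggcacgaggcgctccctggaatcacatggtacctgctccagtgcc
Arntl (chr7:112806468-112806767, + strand, ROR element): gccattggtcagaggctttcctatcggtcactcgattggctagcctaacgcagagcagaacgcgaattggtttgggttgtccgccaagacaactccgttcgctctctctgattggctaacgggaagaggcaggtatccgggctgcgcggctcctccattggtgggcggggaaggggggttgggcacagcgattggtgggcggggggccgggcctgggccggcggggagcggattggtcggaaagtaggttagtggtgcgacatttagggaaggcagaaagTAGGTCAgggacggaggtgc
The E-box of Per1 began 166 bases upstream of the start. In Cry1 the E-box-like word began 79 and the E-box 60 bases upstream, and in Nr1d1 the E-box-like word began 28 bases upstream. The D-boxes of Per3 began 205 and 158 bases upstream. The ROR element of Arntl, a word that REV-ERB and ROR proteins share, began 31 bases into the transcript. A matched word is a description of the sequence, and no binding was measured in these mice.

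The activating arm of the loop was highest in WT mouse 3. Clock read 10.96, 11.13 and 11.62 in the lungs of WT mouse 1, 2 and 3 and 10.92, 10.83 and 11.02 in those of KO mouse 1, 2 and 3. In the hearts it read 11.18, 11.15 and 11.20 in WT and 10.51, 10.73 and 10.42 in KO mice. WT mouse 3 had the highest Clock value in both organs, clearly so in the lung, while the 3 WT hearts lay close together. Npas2, which can replace Clock in the pair, read 4.26, 4.89 and 5.65 in WT lungs and 5.15, 3.56 and 3.39 in KO lungs. Its hearts gave 5.82, 6.49 and 6.56 in WT and 6.57, 5.01 and 6.0 in KO mice, so that WT mouse 3 was highest in lung and level with KO mouse 1 in heart. Arntl, the partner of both and not itself a member, showed the largest gap. Its lungs gave 6.12, 6.10 and 7.79 in WT and 5.69, 5.74 and 5.70 in KO mice, and its hearts 6.60, 5.66 and 7.89 in WT and 4.69, 4.94 and 5.27 in KO mice. Arntl in WT mouse 3 was 3.79-fold the mean of the other 5 lungs and 5.51-fold that of the other 5 hearts.

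The period genes ran the opposite way in that mouse. Per1, Per2 and Per3 encode the proteins that, with the cryptochromes, close the loop. Per2 read 9.96, 10.61 and 8.83 in WT lungs and 10.56, 10.54 and 10.49 in KO lungs, and 9.02, 9.58 and 8.37 in WT hearts and 9.74, 9.70 and 9.56 in KO hearts. Per3 read 10.38, 10.74 and 9.48 in WT lungs and 10.90, 10.92 and 10.92 in KO lungs, and 9.67, 10 and 9.13 in WT hearts and 10.50, 10.31 and 10.26 in KO hearts. For both genes WT mouse 3 was lowest and WT mouse 1 next to lowest in each organ. In WT mouse 3, Per2 was 0.329 and Per3 0.410 times the mean of the other 5 lungs, and 0.451 and 0.495 times that of the other 5 hearts. Per1, which also responds quickly to stimuli outside the clock, read 10.15, 10.69 and 8.77 in WT lungs and 10.68, 10.75 and 10.29 in KO lungs. In hearts it read 10.10, 10.40 and 10.16 in WT and 10.73, 10.63 and 10.36 in KO mice. Per1 was thus 1.74 lower in the lung of WT mouse 3 than the mean of the others, the largest gap of any member, while in its heart Per1 lay within the range of the other 5.

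The cryptochromes, the repressors that bind the CLOCK and BMAL1 pair directly, were low in the lung of WT mouse 3 and close to the others in its heart. Cry2 read 10.18, 10.32 and 9.33 in WT lungs and 10.44, 10.34 and 10.49 in KO lungs. In hearts Cry2 read 9.66, 9.84 and 9.65 in WT and 10.09, 10.16 and 9.69 in KO mice. The heart of WT mouse 3 was the lowest, but WT mouse 1 and KO mouse 3 were almost level with it. Cry1 read 8.41, 8.34 and 7.83 in WT lungs and 8.54, 8.46 and 8.22 in KO lungs, and 7.84, 7.82 and 7.85 in WT hearts and 8.29, 8.20 and 8.19 in KO hearts. The 3 WT hearts nearly coincided, and all 3 KO hearts lay above them.

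The REV-ERB genes split between the organs. Nr1d1 read 10.60, 10.63 and 9.94 in WT lungs and 11.02, 10.81 and 10.50 in KO lungs, and 10.57, 10.86 and 10.82 in WT hearts and 10.65, 10.82 and 10.21 in KO hearts. Nr1d2 read 11.96, 12.23 and 12.09 in WT lungs and 12.30, 11.99 and 12.39 in KO lungs, and 12.19, 12.52 and 11.70 in WT hearts and 12.31, 12.46 and 12.32 in KO hearts. In WT mouse 3, Nr1d1 was below the other 5 lungs by 0.77 on average and within the range of the hearts, whereas Nr1d2 was within the range of the lungs and below the other 5 hearts by 0.66 on average. Nr1d1 values carry a limit of their own, since 52.3% of its exonic bases (1694) lie within exons of Thra, a thyroid hormone receptor gene on the other strand. The libraries were stranded, but the strand setting of the counting is not given in the sources used here, so reads of Nr1d1 and Thra may not be fully separated. Thra ran from 10.17 to 10.83 in lung and from 10.99 to 11.58 in heart, and in WT mouse 3 it was 0.31 above the mean of the other 5 lungs, where Nr1d1 was below, and 0.43 above that of the other 5 hearts, where Nr1d1 was 0.20 above. The part of Thra reads in the Nr1d1 values was not tested. Nr1d2 has a near-identical copy, Gm5827 (96.1% over 1385 bases), which stayed between 4.09 and 5.83. Smaller stretches are shared by Clock with Tmem165 (11.9% of exonic bases), by Npas2 with Gm53549 (12.7%) and by Dbp with Sphk2 (15.5%), each on the other strand.

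Dbp, the output regulator, gave the clearest order of mice. It read 11.21, 11.07 and 10.02 in WT lungs and 11.43, 11.24 and 11.33 in KO lungs, and 11.43, 11.34 and 10.61 in WT hearts and 12.03, 11.81 and 11.91 in KO hearts. The 3 KO mice were above the 3 WT mice in both organs, and within each genotype the mice stood in the same order in lung and heart. WT mouse 3 was lowest, at 0.423 times the mean of the other 5 lungs and 0.468 times that of the other 5 hearts.

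WT mouse 3 was at the same extreme in lung and heart for 5 of the 10 members, highest for Clock and lowest for Per2, Per3, Cry2 and Dbp. For Clock and Cry2 the heart margin was very small, 11.20 against 11.18 and 9.65 against 9.66 in WT mouse 1. Over all 14330 genes tested in both organs, 9.50% had WT mouse 3 at the same extreme. KO mouse 1 was at the same extreme for 2 members, Cry1 and Dbp, both highest, against 3.36% of all genes, and the other 4 mice for none. Blood and fat markers also set WT mouse 3 apart in places. Its heart had the lowest summed adipocyte markers, 8.70 against 9.79 to 12.92 in the other hearts, and the highest red blood cell markers, 15.80 against 12.81 to 15.45. In its lung the summed heart muscle markers were highest, 14.51 against 13.13 to 13.85. Of these markers, Myh6 (14.24) and Tnni3 (10.63) lay above the other 5 lungs, while Actc1, Tnnt2 and Nppa lay within their range. In the heart of WT mouse 3, Nppa was lowest, 14.03 against 15.35 to 16.32 in the other hearts. Myh6 and Actc1 lay above the other 5 hearts there, and Tnnt2 and Tnni3 within their range. Red blood cell markers ran from 12.85 to 17.16 and adipocyte markers from 10.02 to 12.44 in lung, with WT mouse 3 inside both ranges. Rag1, a recombinase of lymphocyte precursors in the thymus, read 5.69 in the lung of WT mouse 3 and 0 in the other 5 lungs, and from 0 to 1.76 in the hearts. Summed skeletal muscle markers read 11.53 in the lung of WT mouse 2 and 5.54 to 6.44 in the other lungs, and 12.78 to 14.44 in the hearts. The heart sums were mostly Acta1, at 12.55 to 14.31, while Myh4 and Myh1 stayed between 0.86 and 3.09 there. In the lung of WT mouse 2, Acta1, Myh1 and Myh4 read 10.27, 10.21 and 6.79. T cell markers ran from 8.73 to 9.15 in lung and 4.68 to 5.56 in heart, and neutrophil markers from 10.15 to 11.12 and 3.29 to 4.89. The part of these markers in the clock gene values was not tested.

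**Figure D2:**
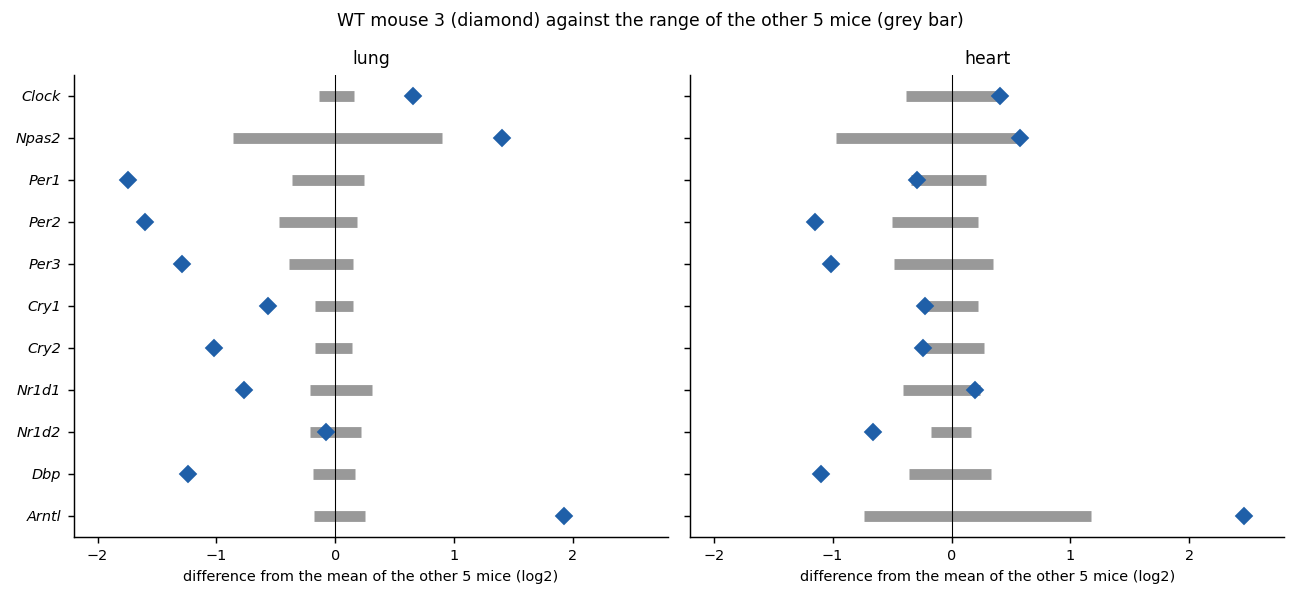
Difference of WT mouse 3 from the mean of the other 5 mice (log2, horizontal axis) for each clock gene and Arntl in lung and heart; the diamond is WT mouse 3 and the grey bar spans the other 5 mice. Arntl and Clock lie to the right of the bar and Per2, Per3 and Dbp to its left in both organs, though Clock only just in heart. Per1 differs by 1.74 below in lung and 0.29 below in heart.

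Whether a mouse with a high value in lung also had a high value in heart was asked of each member over the 6 mice, with the exact two-sided permutation test of Pearson's r. Dbp correlated with r = 0.94 (exact permutation p = 0.00139) and Spearman's rho = 1.0 (exact permutation p = 0.00278). Per3 gave r = 0.96 (exact permutation p = 0.00694) and rho = 0.83 (0.0583), and Per2 r = 0.98 (exact permutation p = 0.0139) and rho = 0.83 (0.0583). Npas2 gave r = 0.80 (exact permutation p = 0.0472) and rho = 0.77 (0.103). Thus 4 of the 10 members passed an unadjusted p under 0.05, all with a positive r, against 5.47% of the 14330 genes tested. That share counts both signs, since 382 of the 784 genes that passed had r above 0. The median r of all genes was -0.06. No member passed after Benjamini-Hochberg adjustment over all genes, where the lowest adjusted p of a member was 0.847 for r and 0.971 for rho. The other 6 members did not pass, with r of 0.69 for Per1 (rho 0.77), 0.55 for Clock (rho 0.49), 0.49 for Cry1 (rho 0.54), 0.48 for Cry2 (rho 0.60), 0.22 for Nr1d2 (rho 0.26) and -0.06 for Nr1d1 (rho 0.09). Their exact permutation p ran from 0.0944 to 0.893 for r and from 0.103 to 0.919 for rho.

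How far this relation rests on WT mouse 3 differed between genes. When the 2 mice farthest from the median lung value were left out, r was 0.88 for Dbp, 0.80 for Per3, 0.99 for Npas2 and 0.16 for Per2. The relation of Per2 therefore rests on those mice, WT mouse 1 and WT mouse 3. Those left out for Dbp were WT mouse 3 and KO mouse 1. For the other members the same step gave 0.64 for Per1, 0.42 for Clock, -0.16 for Cry1, 0.84 for Cry2, 0.78 for Nr1d1 and 0.18 for Nr1d2. With WT mouse 3 alone left out, 2 members, Per3 and Dbp, kept a p under 0.05, and r was 0.96 for Per2 (exact permutation p = 0.0833) and 0.77 for Npas2 (0.108). When lung and heart values were centred on their genotype means, 2 members passed, Per2 and Dbp, and Per3 gave r = 0.95 (exact permutation p = 0.139) and Npas2 r = 0.76 (0.194). Mice were there permuted within genotypes only, over 36 pairings, so that p could not go below 0.0278, the value of Per2 and Dbp.

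**Figure D3:**
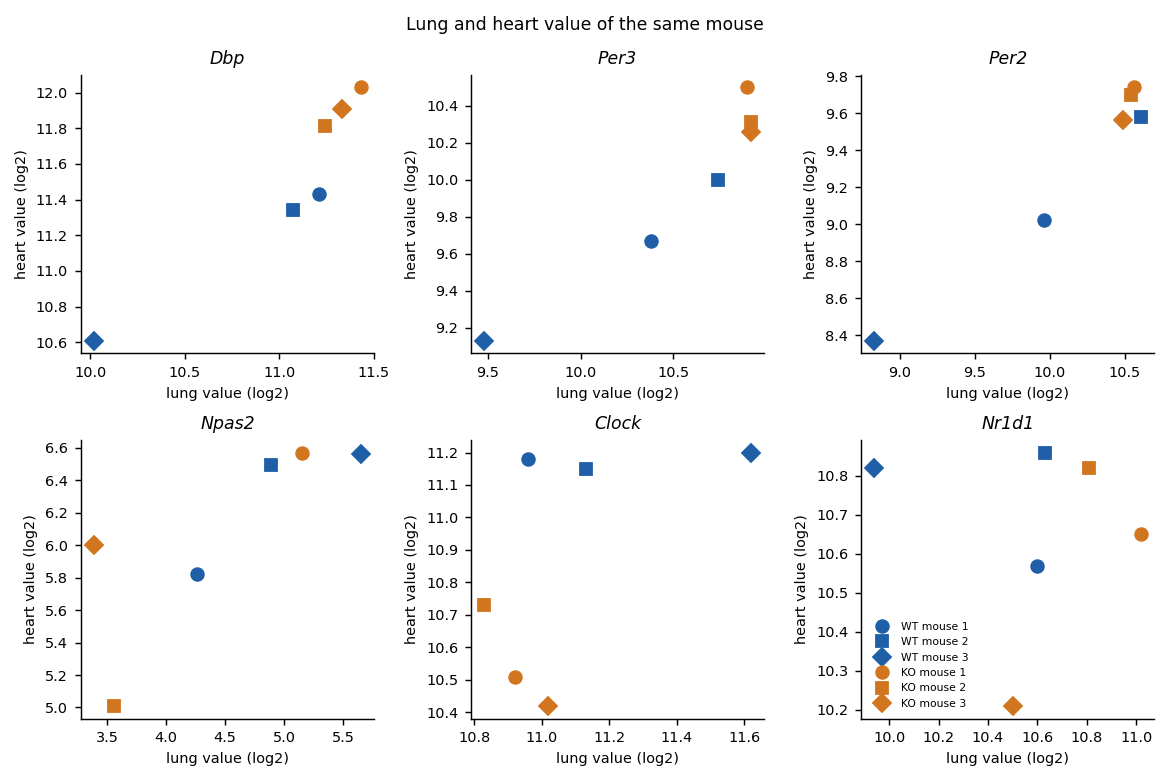
Heart value (log2, vertical axis) against lung value (log2, horizontal axis) of the same mouse for Dbp, Per3, Per2, Npas2, Clock and Nr1d1; blue is WT, orange is KO and symbols mark mouse 1, 2 and 3. Dbp rises in the same order in both organs (rho = 1.0), and Nr1d1 shows no such order (r = -0.06).

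Mice of a group varied more in the clock genes than in a typical gene in lung, but not when WT mouse 3 was left out. The median within-group SD of the 10 members was 0.42 in lung, against 0.29 for all 16551 genes tested, and 0.27 in heart, against 0.24 for 15303 genes. Without WT mouse 3 the medians were 0.17 in lung, against 0.21 for all genes, and 0.18 in heart, against 0.22. Npas2 had the largest SD of the members in both organs, 0.84 and 0.63, and kept 0.83 and 0.70 without WT mouse 3. Cry1 in the heart had the smallest, 0.04, and only 0.3% of the genes tested had a smaller SD.

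The comparison of KO with WT lungs called no member. A gene was called when its limma adjusted p was under 0.05, its fold at least 1.5 and the mean of its higher group at least 6, and 0 of the 10 members were called in lung, against 0.0665% of all genes (11 of 16551). Per1, Per2 and Per3 were 0.70 (SE 0.42), 0.73 (SE 0.38) and 0.71 (SE 0.28) above WT on the log2 scale, and Dbp 0.57 (SE 0.29), with limma adjusted p of 0.841, 0.838, 0.809 and 0.837. Cry2 was 0.48 (SE 0.25), Nr1d1 0.39 (SE 0.23), Cry1 0.22 (SE 0.21) and Nr1d2 0.13 (SE 0.16) above WT, with adjusted p from 0.839 to 0.887. Clock was -0.32 (SE 0.19) and Npas2 -0.90 (SE 0.56) relative to WT, both with an adjusted p of 0.841. At an unadjusted p under 0.05, 1 member passed, Per3 (0.0348), against 5.93% of all genes. Per3, Cry2 and Dbp had all 3 KO lungs above all 3 WT lungs, 3 members of 10, where 12.8% of all genes had groups that did not overlap.

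These lung differences were carried largely by WT mouse 3. Without it the difference fell to 0.15 (SE 0.20) for Per1, 0.24 (SE 0.19) for Per2, 0.19 (SE 0.12) for Dbp and 0.17 (SE 0.12) for Cry2. Per3 was 0.35 (SE 0.14) above WT, with an unadjusted p of 0.0365 and a limma adjusted p of 0.575, and remained the member with the lowest p. The median difference of the 10 members was 0.43 with all lungs and 0.16 without WT mouse 3, against 0.01 and 0.02 for all genes tested. The groups of Per3, Cry2 and Dbp were apart with all lungs, so leaving a lung out could not make them overlap. No other member joined them, where 26.4% of all genes had groups that did not overlap in that smaller comparison. An unadjusted p under 0.05 was passed there by 8.54% of all genes. WT mouse 2 weighed the other way, and without it Per1 and Per2 were 1.11 and 1.13 above WT. Npas2 in lung ran from -1.45, without KO mouse 1, to -0.54, without WT mouse 3, over the mice left out in turn.

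In hearts, where the mice of a group varied less, more members passed an unadjusted p, though again 0 of the 10 members were called, against 0.0850% of all genes (13 of 15303). Clock was 0.62 (SE 0.12) lower in KO hearts, a value of -0.62 with an unadjusted p of 7.48e-04 and a limma adjusted p of 0.270, and its KO hearts, 10.42 to 10.73, all lay under its WT hearts, 11.15 to 11.20. Dbp was 0.79 (SE 0.21) higher, a 1.73-fold difference with an unadjusted p of 0.00447, and Per3 0.76 (SE 0.21) higher, a 1.69-fold difference with an unadjusted p of 0.00555, both with a limma adjusted p of 0.481. Cry1 was 0.39 (SE 0.14), Per2 0.68 (SE 0.27) and Per1 0.35 (SE 0.15) above WT, with adjusted p of 0.610, 0.641 and 0.647. At an unadjusted p under 0.05, 6 of the 10 members passed (Clock, Per1, Per2, Per3, Cry1 and Dbp), where 7.46% of all genes did. Groups did not overlap for 4 of the 10, Clock with KO below and Per3, Cry1 and Dbp with KO above, where 13.0% of all genes had groups that did not overlap. The remaining members were Cry2 at 0.27 (SE 0.15), Nr1d2 at 0.23 (SE 0.20), Nr1d1 at -0.19 (SE 0.17) and Npas2 at -0.43 (SE 0.41), with adjusted p from 0.740 to 0.814. Over the mice left out in turn, Npas2 ran from -0.79, without KO mouse 1, to -0.00, without KO mouse 2, and it was -0.88 from summed transcripts. Nr1d1 ran from -0.32, without KO mouse 2, to -0.02, without KO mouse 3. Nr1d2 was 0.42 without WT mouse 2.

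In the median over the members, the heart differences depended less on WT mouse 3 than those of the lung. Without it, Clock was -0.61 (SE 0.14), Dbp 0.53 (SE 0.13), Per3 0.53 (SE 0.16) and Cry1 0.40 (SE 0.15) relative to WT, and these 4 still had an unadjusted p under 0.05, where 8.32% of all genes did. Their limma adjusted p were 0.365, 0.389, 0.503 and 0.588. The groups of these 4 members were apart with all hearts, so leaving a heart out could not make them overlap. No other member joined them, where 25.7% of all genes had groups that did not overlap. Per2 came to 0.37 (SE 0.19), from 0.68 with all hearts, Per1 to 0.32 (SE 0.16) and Nr1d2 to 0.01 (SE 0.15). WT mouse 2 weighed the other way in heart too, and without it Per2 and Per3 were 0.97 and 0.96 above WT. Dbp was 0.94 above WT without WT mouse 1. The median over the members was 0.31 with all hearts and 0.28 without WT mouse 3, against 0.03 and 0.02 for all genes tested.

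**Figure D4:**
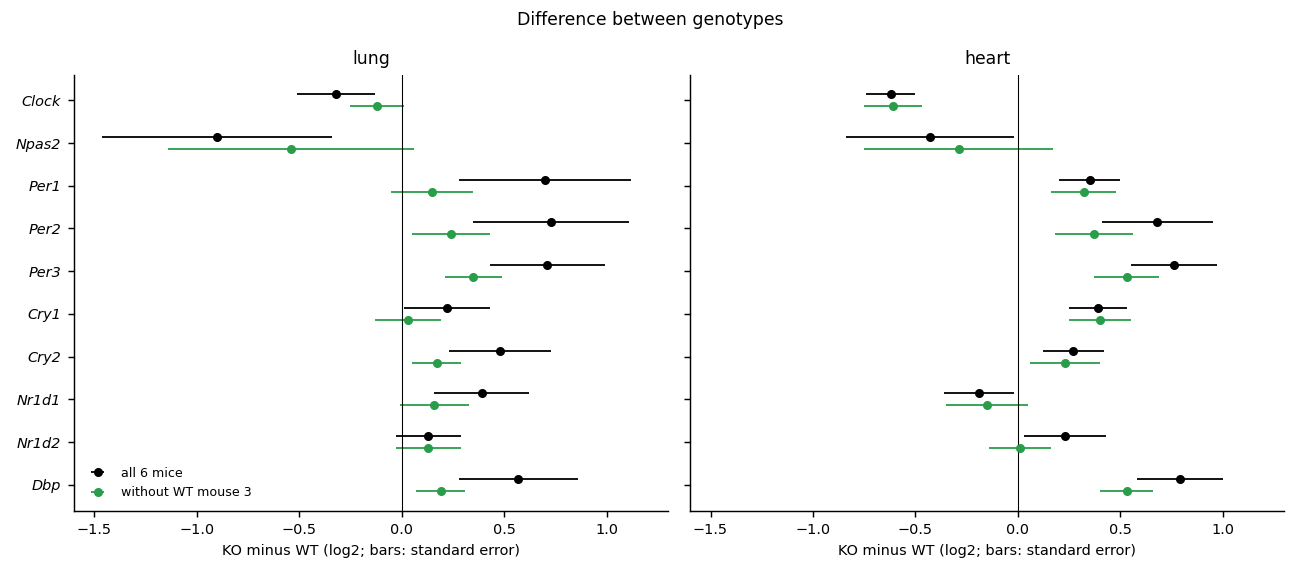
KO minus WT difference (log2, horizontal axis, bars are standard errors) of each clock gene in lung and heart, with all 6 mice (black) and without WT mouse 3 (green). In lung the differences of Per1, Per2 and Dbp shrink from 0.70, 0.73 and 0.57 to 0.15, 0.24 and 0.19, while in heart Clock stays at -0.62 and -0.61.

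Whether the genotype difference itself differed between lung and heart was tested in 1 model of the 12 libraries. No member passed a limma adjusted p under 0.05, against 0.00566% of all genes (1 of 17666), and 1392 genes had an unadjusted p under 0.05. Nr1d1 had the lowest member p, with a difference 0.57 (SE 0.30) larger in lung than in heart and an adjusted p of 0.656. Per2 and Per3 differed by 0.05 (SE 0.53) and -0.05 (SE 0.39) between the organs. With mouse as a block these SE were 0.21 and 0.20, while those of Clock and Cry1 rose from 0.22 and 0.24 to 0.23 and 0.26. Without WT mouse 3, Clock was the member with the lowest p (0.0192), with a difference 0.49 (SE 0.17) less negative in lung and an adjusted p of 0.365. Clock thus gave -0.12 in lung and -0.61 in heart without that mouse, a contrast that did not pass the test over all genes.

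Between the organs, 2 of the 10 members were called, where 51.3% of all genes were. Npas2 was lower in lung (log2 difference -1.59, SE 0.38, limma adjusted p = 0.00198), a 3.01-fold difference seen in 6 of 6 mice. Per2 was higher in lung by 0.83 (SE 0.26, adjusted p = 0.0112), a 1.78-fold difference, also in 6 of 6 mice. Per3 was 0.58 higher in lung (SE 0.20, adjusted p = 0.0166) in 6 of 6 mice, a fold of 1.49 just under the threshold, and it was called without WT mouse 3 (0.64, SE 0.10, adjusted p = 1.88e-04). Dbp was -0.47 in lung relative to heart (SE 0.20, adjusted p = 0.0452) in 6 of 6 mice, with a fold of 1.39. The organs of a mouse were not paired in this model either. With mouse as a block, Dbp had SE 0.09 and a limma adjusted p of 0.00146, while the adjusted p of Clock and Cry1 rose to 0.123 and 0.0857. The gap in Dbp was -0.60, -0.57 and -0.58 in the KO mice and -0.22, -0.27 and -0.59 in WT mouse 1, 2 and 3. Clock, Cry1 and Cry2 were 0.21, 0.27 and 0.34 above heart with adjusted p of 0.0986, 0.0596 and 0.0653, and Per1, Nr1d1 and Nr1d2 lay between -0.17 and -0.07 with adjusted p from 0.542 to 0.680.

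These organ differences are set against a shift of the whole table. The median gene was 0.31 higher in lung than in heart on the deposited scale, so Per2 and Per3 exceeded the median gene by less than their own difference, and Dbp and Npas2 fell further below it. Estimated counts were also analysed by limma-voom, without the deposited shift of each library and scaled only by its total over the genes tested. So scaled, the median gene was 0.86 higher in lung, 6 members were called, and the sign of Per1, Nr1d1, Nr1d2 and Dbp turned to 0.37, 0.48, 0.46 and 0.07, all under that median. Under quantile normalization the median was 0.07 and 3 members were called, Per3 (0.60) beside Npas2 and Per2. In the comparison of KO and WT lungs, limma-voom scaled by totals only moved the median gene to 0.30 and the median member to 0.72, and no member was called.

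**Figure D5:**
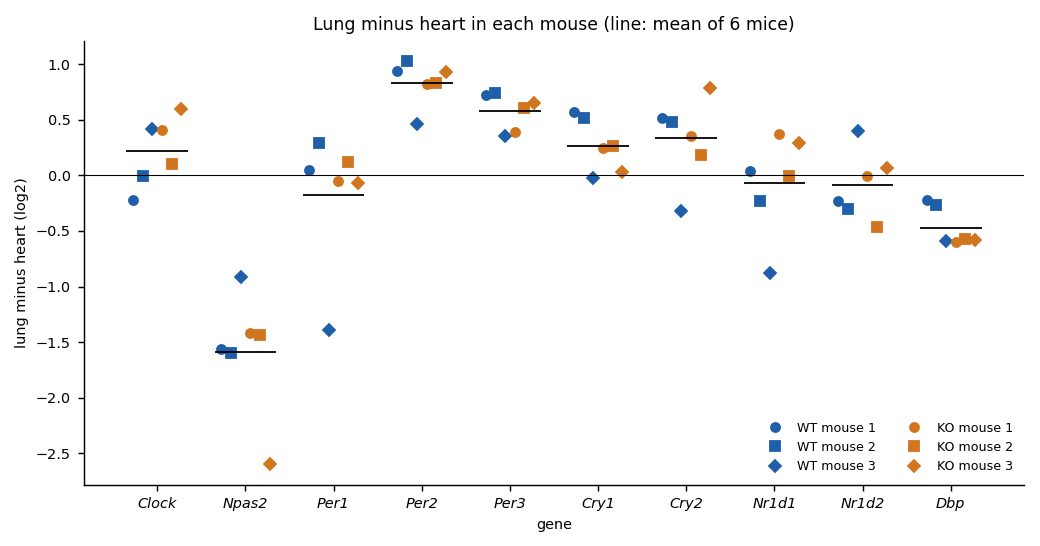
Lung minus heart value of the same mouse (log2, vertical axis) for each clock gene, with symbols for the 6 mice and a line at their mean. Npas2 and Dbp lie below 0 and Per2 and Per3 above 0 in all 6 mice, and the lowest Per1 point, at -1.39, is WT mouse 3.

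Other genes of the loop also stood apart in WT mouse 3. Of 10 further clock transcription factors and repressors, 6 had WT mouse 3 beyond the range of the other 5 mice on the same side in both organs. Arntl and Nfil3, a repressor that competes with DBP at D-boxes, were above the range, and Ciart, an inhibitor of the CLOCK and BMAL1 pair, Bhlhe41, which represses at E-boxes, and Tef and Hlf, D-box activators related to DBP, were below it. Ciart differed from the mean of the others by -2.82 in lung and -2.59 in heart, further than any member. Nfil3 was 1.16 and 0.81 higher. Among 7 clock kinases and ubiquitin ligases, which set the lifetime of PER and CRY proteins, none stood on the same side in both organs, and among 5 clock-controlled outputs only Tspan4 did.

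None of these further genes was called between the genotypes in either organ. Of the 10 transcription factors and repressors, 4 had an unadjusted p under 0.05 in lung and 3 in heart, where 5.93% and 7.46% of all genes did, with a median KO minus WT difference of 0.62 in lung and 0.28 in heart, against 0.01 and 0.03 for all genes. Without WT mouse 3, an alternative chosen after seeing the data, the counts were 4 and 3, at 8.54% and 8.32% of all genes, and the medians 0.33 and 0.19. Arntl was -0.96 (SE 0.44) in lung and -1.75 (SE 0.50) in heart, with limma adjusted p of 0.829 and 0.508. Its KO values all lay under its WT values in both organs, where 12.8% of all genes in lung and 13.0% in heart had groups that did not overlap. Without WT mouse 3, Arntl was -0.40 (SE 0.23) in lung and -1.16 (SE 0.37) in heart, with limma adjusted p of 0.655 and 0.544. Usp2, a clock-controlled deubiquitinase, had 1.37 (SE 0.37, adjusted p = 0.806) in lung and -0.07 (SE 0.18, adjusted p = 0.936) in heart, and 0.93 (SE 0.22, adjusted p = 0.479) and -0.11 (SE 0.21, adjusted p = 0.875) without WT mouse 3. The kinases and ligases had 0 of 7 under an unadjusted p of 0.05 in each organ, with medians of 0.02 and 0.03, and 0 of 7 with medians of 0.14 and 0.03 without WT mouse 3. Between the organs, 5 of the 10 transcription factors and repressors were called, near the 51.3% of all genes, and all 5 were lower in lung (Rorb, Bhlhe40, Bhlhe41, Nfil3 and Hlf), and of the 5 outputs Tsc22d3 was called higher and Usp2 and Nampt lower in lung.

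Per1 and Per2 can also be induced apart from the loop, by glucocorticoids, by acute stimuli and by temperature, and genes of those responses are given beside them. The lists hold 8 glucocorticoid, 8 immediate early and 6 temperature genes. None of those tested was called between genotypes in lung or heart, against 0.0665% and 0.0850% of all genes. Fosb was not tested in heart, which left 7 immediate early genes there. At an unadjusted p under 0.05, 3 glucocorticoid, 1 immediate early and 1 temperature gene passed in lung, where 5.93% of all genes did. In heart 2 glucocorticoid (Mt1 and Mt2), 0 immediate early and 2 temperature genes (Cirbp and Hsph1) passed, where 7.46% did. Mt2, a metallothionein, came nearest, at 1.65 (SE 0.25, limma adjusted p = 0.0997) above WT in heart, and 1.75 (SE 0.27, adjusted p = 0.149) without WT mouse 3. The immediate early genes Fos and Egr1 were highest in WT mouse 2, at 10.66 and 9.81 in lung and 8.99 and 8.75 in heart, and next in KO mouse 1, at 9.31 and 8.72 in lung and 8.10 and 7.96 in heart. In the lung of WT mouse 3, 3 of the 8 immediate early genes, Fos, Egr1 and Nr4a1, lay below the other 5 lungs. They differed from the mean of those lungs by -0.99, -1.92 and -1.99, and Per1 by -1.74. The remaining 5 genes of the list (Fosb, Junb, Ier2, Dusp1 and Atf3) lay within the range of the other lungs. In its heart all 8 immediate early genes lay within the range of the others, and so did Per1. Of the glucocorticoid genes, only Zbtb16 had WT mouse 3 below the other 5 in both organs, and of the temperature genes the chaperones Hsph1 and Dnajb1 had it above. Between the organs, 3 glucocorticoid, 4 immediate early and 4 temperature genes were called higher in lung, and 1 glucocorticoid and 1 temperature gene lower, where 51.3% of all genes were called in either direction. The part of these responses in the values of Per1 and Per2 was not tested.

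Over the whole table, the genes whose deviations from the group means ran most like those of Dbp over the 12 libraries were Limd2 (r = 0.97), Gypc, Gpx3, Plpp6 and Numbl (0.96 each). Those most opposite were Pstpip2, Haus8 and Prpf38b (-0.96 each) and Vav3 and Pcdhb19 (-0.95 each). Of the members, Per3 ran closest to Dbp (r = 0.90, place 32 of 14329), then Per2 (0.86, place 88). Against Arntl, Per3 took place 4 among the most opposite genes of the table (r = -0.94) and Per2 place 12 (-0.92), with Fbxl2 (-0.98), Arrdc1 (-0.97) and Zfp365 (-0.95) ahead of them. The genes most like Arntl were Tfpi2, Pogk, Dus2 and Nip7 (0.96 each) and Nrf1 (0.95). These are descriptions over 12 libraries of 6 mice, and they share WT mouse 3. Without it, the likeness to Dbp was 0.79 for Limd2, 0.17 for Gypc, 0.53 for Gpx3, 0.33 for Plpp6 and 0.43 for Numbl, and from -0.36 (Pstpip2) to -0.79 (Prpf38b) for the opposite genes. The genes most like Arntl gave 0.58 to 0.83 without it, and Fbxl2, Arrdc1 and Zfp365 gave -0.89, -0.84 and -0.92. Of the members, Per3 and Dbp gave r = -0.19 and Per2 and Dbp -0.39, whereas Per3 and Arntl gave -0.74 and Per2 and Arntl -0.66. Dbp and Arntl themselves gave -0.89 over the 12 libraries and 0.02 without WT mouse 3.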

How the data were processed

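Strand-specific total RNA libraries of the lung and heart of 3 WT and 3 KO mice were quantified by the authors with Salmon against GENCODE vM33 transcripts of mm39. The submitters' processing notes also name cutadapt, STAR and limma (3.42.2). The deposited tables hold 55679 genes and 147907 transcripts on a log2 scale. Transcript values are log2 of 1 plus the estimated count, and gene values carry a shift for each library, whose method is not given in the sources used here. Every column belonged to a sample of the series, and no pair of libraries was identical.

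The members and lists were chosen with earlier results of these data known. The named genes are the 10 members, the listed clock and response genes, the 5 genes most and least like Dbp and Arntl, and Adam19. A further clock gene is not reported here and was left out of its list. Mouse is the replicate. That the mice were separate animals follows from their identifiers.

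Genes with a value of at least 3.46 (log2 of 1 plus 10) in at least 3 libraries were tested with limma 3.58.1 (lmFit, eBayes with a trend, R 4.3.3) on the deposited values, with Benjamini-Hochberg adjustment over all genes tested and the thresholds of the study (adjusted p under 0.05, fold of at least 1.5, group mean of at least 6). Exact permutation tests of lung-heart correlations ran over all pairings of 6 mice, or within genotypes where values were centred on genotype means. With 3 mice against 3, an exact permutation test cannot go below p = 0.10, and none was used between genotypes. Same-numbered lung and heart libraries come from the same mouse. The deviations of 17666 genes from group means correlated between the organs by 0.05, 0.14 and -0.02 in WT and 0.02, -0.07 and -0.04 in KO mouse 1, 2 and 3.

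Coordinates, exons and lengths came from GENCODE vM39 on GRCm39 and promoter sequences from RefSeq. Copies were searched with blastn 2.17.0. Steps were tested on simulated data. Alternatives were another filter, scaling or model, summed transcripts, each mouse left out and mouse as a block. Limma-voom was run on estimated counts without the shift of each library, scaled only by library total. Lists without WT mouse 3 were added after seeing the data. Depth, 17674788 to 35862932 estimated counts, limits Npas2 in particular.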

Additional observations from a re-analysis of the deposited data

How the results depend on the processing

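In every alternative run (filters, scalings, limma-voom, no trend, summed transcripts, 1 fit over 12 libraries, each mouse left out), 0 of the 10 members were called between KO and WT in lung or in heart, and 0 for the difference between the organs. In this design a miss does not show that genotypes were alike. Between lung and heart the count of members called, 2, became 1 when 10 estimated counts were asked of every library, a filter that Npas2 does not pass, and 6 with limma-voom, where the median gene itself was 0.86 higher in lung. It ran from 2 to 3 with a mouse left out, and was 2 with the replicate block of mouse, which changed no call. With that replicate block 0 members differed in genotype difference between the organs. The count of members with a lung-heart correlation, 4, became 2 with values centred on genotype means and 1 with Spearman's rho, and ran from 2 (without WT mouse 3) to 4 with a mouse left out. The median SD ran from 0.17 to 0.48 in lung and from 0.18 to 0.31 in heart with a mouse left out, lowest in each organ without WT mouse 3. The cause was not tested.

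Signs turned in 26 of 657 single-gene values. For the difference of KO minus WT between lung and heart, limma-voom gave 0.22 for Per3, 0.10 for Cry1, 0.16 for Nr1d2 and 0.04 for Dbp, median centring 0.02 for Per3, and summed transcripts 0.27 for Npas2. With a mouse left out it ran from -0.17 to 0.67 for Per1, -0.12 to 0.16 for Per2, -0.17 to 0.03 for Per3, -0.06 to 0.36 for Cry2 and -0.22 to 0.13 for Nr1d2. For lung minus heart, limma-voom gave 0.37 for Per1, 0.48 for Nr1d1, 0.46 for Nr1d2 and 0.07 for Dbp, quantile normalization 0.29 for Nr1d2, and summed transcripts 0.03 for Per1. With a mouse left out it ran from -0.33 to 0.08 for Per1 and from -0.17 to 0.06 for Nr1d1. The lung-heart correlation turned to -0.14 for Clock and 0.25 for Nr1d1 when centred on genotype means, and for Nr1d1 to 0.09 with Spearman's rho. With a mouse left out it ran from -0.34 to 0.47 for Nr1d1, highest without WT mouse 3. The cause was not tested.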
